A study of Mus musculus with 6 samples.

Results

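The EGF receptor family, its ligands and its inhibitors were examined in intestinal epithelial cell preparations from mice with and without inducible deletion of Pggt1b. The members were 10 named genes: the receptors Egfr, Erbb2 and Erbb3, the ligands Tgfa, Areg, Ereg, Hbegf and Btc, and the inhibitors Errfi1 and Lrig1. Members were taken as every probe set whose platform annotation gave one of these as its single gene symbol, which yielded 23 probe sets for 9 of the 10 genes, out of 18193 genes with a single symbol. Areg had 0 such probe sets and was not analysed here.

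All 6 mice were of a mixed 129/SV and C57BL/6 background and carried a floxed allele of Pggt1b, written Pggt-Ibeta in the labels, the gene for the beta chain of GGTase-I, an enzyme that attaches a geranylgeranyl lipid to proteins. The 3 control mice were VillincreERT2 negative, and the 3 deficient mice were VillincreERT2 positive, which is a tamoxifen-dependent Cre driven by the epithelial Villin promoter. Every mouse received 1 mg of tamoxifen on each of 3 days and cells were isolated on day 6 from the start, with 1 array per mouse. Since controls lacked Cre, effects of Cre activity and of Pggt1b loss cannot be told apart. The labels used here name no age, sex, gut segment or scan batch.

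EGF receptor ligands are made as membrane-bound precursors that proteases release from the cell surface. Egfr binds Tgfa, Areg, Ereg, Hbegf and Btc, pairs with itself or with Erbb2 or Erbb3, and signals through the Ras-MAPK and PI3K-Akt branches. Errfi1 (also called Mig6) binds the receptor kinase domain and blocks it, and Lrig1 is a transmembrane protein that lowers receptor levels and marks a set of crypt stem cells. In the gut this pathway drives crypt proliferation and repair after injury, and the balance of ligands and inhibitors sets its strength.

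The preparations held RNA of the defining epithelial markers. Markers of T cells stood lower in the deficient arrays, as did some genes of the myeloid list, whose cell source was not tested. All 10 epithelial markers, Epcam, Cdh1 and Vil1 among them, read between 8.31 and 15.4 (log2) on the 6 arrays. Of 16 T cell and intraepithelial lymphocyte markers, 13 were tested and 11 of these fell, against 1.98% of all genes; Cd3d, Cd7 and Il2rb among the 11 passed the filter through the controls alone, where they are higher, and 8 of the other 10 fell. The list mean, relative to its control mean, ran from -0.06 to 0.09 in controls and from -4.03 to -2.55 in deficient arrays, with Cd2 and Cd247 at or below 5 everywhere. The myeloid list, with 11 of 13 tested, had 4 lower calls: Adgre1, Fcer1g, Tyrobp and Itgax, the last of which passed the filter through the controls alone. All 11 had lower means, but Lyz2 (-0.41), Csf1r (-0.64), Cd14 (-0.31), Cd74 (-1.24) and C1qa (-0.88) overlapped between the groups and were uncalled. The list mean ran from -0.30 to 0.34 in controls and from -1.77 to -0.95 in deficient arrays, with Cd68 and Itgam at or below 5. Of 7 B and plasma cell markers 2 were tested and 0 called, with Blnk at 1.31 and Jchain at -1.62, while Cd79a, Cd79b and Mzb1 were at or below 5; the mean of these 2 ran from -0.23 to 0.29 in controls and from -0.67 to 0.34 in deficient arrays. In the stromal list 7 of 13 markers, Col1a1 and Pecam1 among them, were at or below 5 on all arrays. Its 5 tested members changed by -1.07 (Vim), -1.69 (Col1a2), -1.74 (Col3a1), 0.13 (Dcn) and 0.06 (Acta2), with 0 called. In controls Col3a1 read 10.6, 9.32 and 9.33 and Dcn 9.78, 7.96 and 8.85. The mean of these 5 ran from -0.39 to 0.65 in controls and from -1.21 to -0.43 in deficient arrays. Pggt1b itself did not separate the groups: its brightest probe set read 9.30, 9.55 and 9.33 in controls and 9.75, 8.88 and 8.83 in deficient arrays, and no label places it relative to the deleted part. Every direction below therefore rests on the labels. In these bulk samples, fewer cells of a type and less RNA per cell cannot be told apart.

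None of the 9 measured members passed the test over all genes. With limma on the deposited log2 values and Benjamini-Hochberg adjustment over 8893 genes, 0 of 9 members were called at 0.05, against 2.09% of all genes tested (1.98% lower and 0.112% higher); 2 members, Btc and Hbegf, had an unadjusted limma p under 0.05, as did 16.9% of genes. The groups did not overlap for 3 members, Btc and Egfr being higher and Hbegf lower in the deficient arrays, against 25.7% of all genes in either direction (9% higher and 16.7% lower). Means were higher in the deficient arrays for 7 members and lower for 2, beside 4041 of all 8893 genes with a higher mean. The signs of Erbb2, Erbb3, Ereg and Lrig1 turned in some fits that left out 1 array. The members had a median log2 change of 0.28 beside -0.04 for all genes, and a median absolute change of 0.30 beside 0.27. Values of different probe sets cannot be compared as levels, so each gene is described against its own controls. In the fit on all probe sets, 0 of the 13 member probe sets tested were called, against 1.47% of 14478. With 3 arrays a group, the smallest two-sided p of an exact permutation test is 0.10, so none was run.

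**Figure D1:**
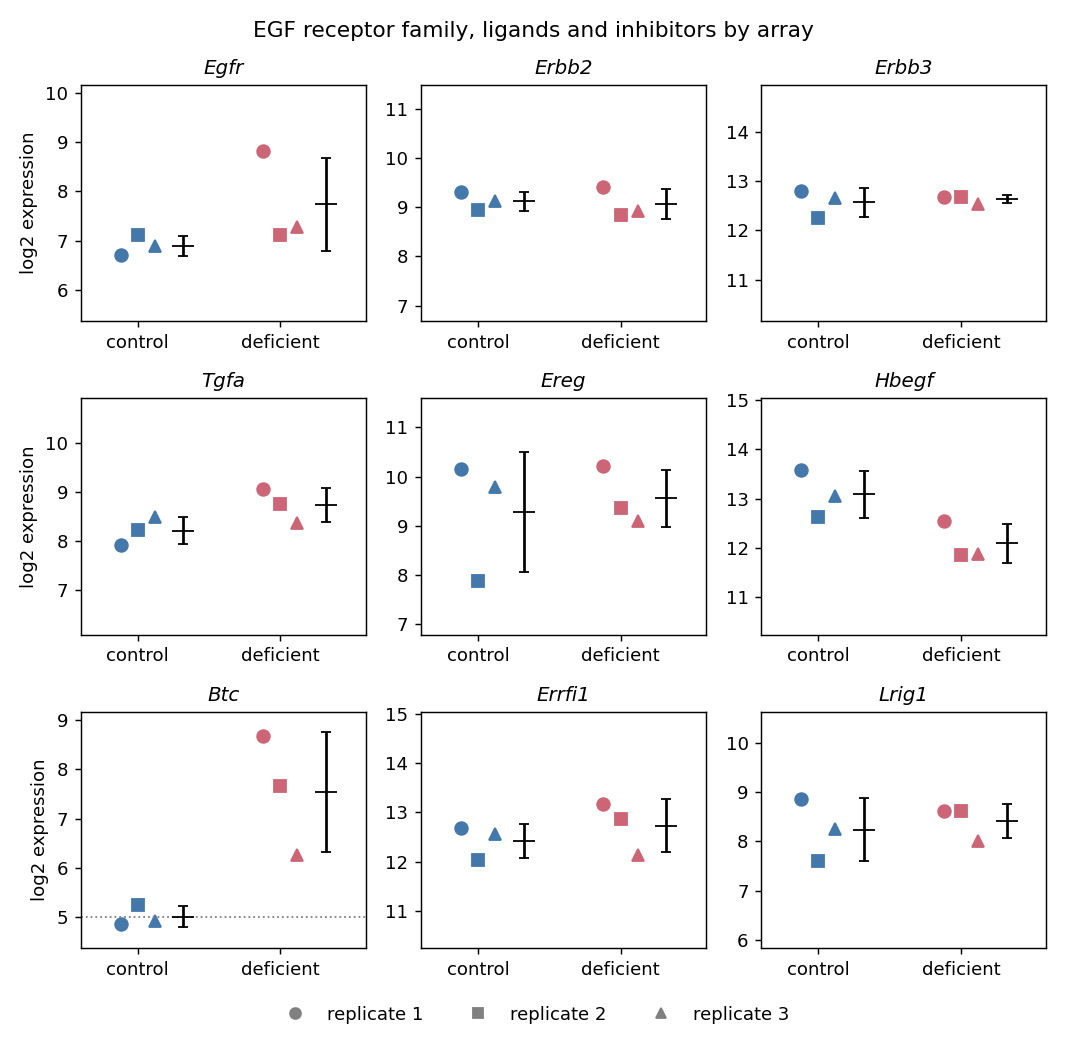
Log2 expression of the 9 measured members by group, with 1 symbol per array and the group mean with its SD (n = 3) in black. Shape gives the replicate number, and the labels state no pairing of mice across groups. Each panel spans the same log2 range, and the dotted line marks the filter level of 5. Btc lay between 4.86 and 5.25 in controls and between 6.27 and 8.69 in deficient arrays, while Hbegf lay lower in all 3 deficient arrays.

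Among the ligands, betacellulin (Btc), which activates both Egfr and Erbb4, had the largest fitted change of any member. It read 4.86, 5.25 and 4.92 in control replicates 1, 2 and 3 and 8.69, 7.65 and 6.27 in deficient replicates 1, 2 and 3. The controls sat together at the low end of the scale, whereas the deficient arrays were all higher and spread over 2.42 log2 units, leaving a gap of 1.02 between the groups. The group means were 5.01 ± 0.21 and 7.54 ± 1.21 (SD, n = 3 each), and the fitted log2 change was 2.53 ± 0.56 (SE; 95% interval 1.20 to 3.85), at least 5.47-fold when values at or below 5 were raised to 5. By size this change ranked 92 of 8893, yet its limma adjusted p was 0.0926. Btc entered the test through all 3 deficient arrays and 1 control, so its passing of the filter was itself tied to the higher deficient values. Its second probe set behaved alike, at 3.05, 3.53 and 3.41 in controls and 7.06, 5.25 and 4.66 in deficient arrays, but with only 2 arrays above 5 it was not tested. Without deficient replicate 3, which had the smallest rise, the Btc change was 3.16 with a limma adjusted p of 0.00892; over the 6 fits that left out 1 array it ran from 1.95 to 3.16 and the adjusted p from 0.00892 to 0.291.

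Btc was highest in deficient replicate 1 and lowest in deficient replicate 3. Of 10 marker lists, 6 had these arrays in that order or its reverse. The epithelial list mean stood at 0.39, 0.21 and 0.07 in deficient replicates 1, 2 and 3, and the T cell list at -4.03, -3.28 and -2.55. The stromal, Paneth, enteroendocrine and tuft lists (tuft by 1 tested gene, Avil) were likewise lowest in replicate 1 and highest in replicate 3. The part of the marker lists in the Btc values was not tested. The order was not particular to them: the inhibitor, ligand shedding, adaptor, Ras-MAPK, receptor trafficking and feedback inhibitor lists were also highest in deficient replicate 1 and lowest in deficient replicate 3.

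Heparin-binding EGF-like growth factor (Hbegf), a ligand induced early in wounded epithelium, was the member whose deficient arrays all lay below the controls. It read 13.6, 12.6 and 13.1 in controls and 12.5, 11.9 and 11.9 in deficient arrays. The groups were separate by 0.09 log2 units only, since control replicate 2 was close to deficient replicate 1. The means were 13.09 ± 0.47 and 12.09 ± 0.39 (SD, n = 3), a log2 change of -0.996 ± 0.30 (SE; 95% interval -1.71 to -0.28), or 1.99-fold lower (limma adjusted p = 0.190). A second probe set gave the same picture: 11.8, 10.7 and 11.4 in controls and 10.7, 9.88 and 9.99 in deficient arrays, where the fit on all probe sets gave a log2 change of -1.13 ± 0.35 (SE; limma adjusted p = 0.207). The change of the first probe set ran from -1.22 to -0.75 when 1 array was left out.

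Transforming growth factor alpha (Tgfa), an Egfr ligand made by villus and crypt epithelium, read 7.93, 8.23 and 8.48 in controls and 9.06, 8.76 and 8.37 in deficient arrays. Deficient replicate 3 fell below control replicate 3, so the groups overlapped. The log2 change was 0.51 ± 0.24 (SE; 95% interval -0.05 to 1.08) and the limma adjusted p 0.328. The other 2 Tgfa probe sets stayed at or below 5 on all arrays and gave no measure of change.

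Epiregulin (Ereg), a ligand that rises in regenerating crypts, varied more among controls than between groups. It read 10.2, 7.89 and 9.78 in controls and 10.2, 9.36 and 9.10 in deficient arrays. Control replicate 2 was the lowest of the 6 by over 1 log2 unit. The log2 change was 0.28 ± 0.61 (SE; limma adjusted p = 0.833), and it turned to -0.41 without control replicate 2 and to -0.04 without deficient replicate 1.

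In assembly GRCm38.p6, Epgn, Ereg, Areg and Btc are consecutive protein-coding genes on chromosome 5. Of these neighbours, Btc stood higher in every deficient array, Ereg overlapped between the groups, and Epgn, the gene of the ligand epigen, was at or below 5 on all 6 arrays. The difference between the changes of Btc and Ereg was not tested.

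The promoters of Btc and Egfr are shown because these were the members whose deficient arrays all stood above their controls. They are RefSeq sequences of build GRCm38.p6, 250 bases before to 50 bases after the annotated start, printed 5′ to 3′ along the gene, with Btc from chr5:91402945-91403244 on the minus strand and Egfr from chr11:16751953-16752252 on the plus strand. Capitals mark a GC box (GGGCGG, here on the opposite strand).
Btc: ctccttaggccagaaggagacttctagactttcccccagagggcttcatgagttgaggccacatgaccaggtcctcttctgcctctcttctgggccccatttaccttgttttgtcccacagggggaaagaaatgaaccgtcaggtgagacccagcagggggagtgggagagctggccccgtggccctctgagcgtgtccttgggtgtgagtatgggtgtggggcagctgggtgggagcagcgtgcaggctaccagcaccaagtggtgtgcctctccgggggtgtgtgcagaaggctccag
Egfr: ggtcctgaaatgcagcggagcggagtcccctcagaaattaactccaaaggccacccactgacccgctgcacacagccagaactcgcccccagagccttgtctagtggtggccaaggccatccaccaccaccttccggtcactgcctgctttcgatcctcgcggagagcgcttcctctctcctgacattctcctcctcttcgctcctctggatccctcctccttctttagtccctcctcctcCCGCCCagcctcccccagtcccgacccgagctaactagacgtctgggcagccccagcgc
The table held 8 promoters for 7 members; Erbb3, Ereg and Hbegf are named only. Both strands were searched for the GC box, the AP-1 letters TGANTCA, the TEAD letters GGAATG, the EGR letters GCGNGGGCG, the TATA letters TATAAA and the CArG box bound by serum response factor; GC box and EGR letters can overlap. The Btc window held 0 of these and the Egfr window 1 GC box, which 35.7% of 32851 promoters of this length also held. Among the 8 member promoters, 5 held a GC box and 2 held the TEAD letters (Erbb2 and 1 of the 2 Errfi1 starts), against 14.7% of all promoters. The TATA letters were in 2 of the 8 (Areg and the other Errfi1 start), against 13.6%. The AP-1 letters, EGR letters and CArG box were found in 0 of the 8, against 7.81%, 5.55% and 1.63% of all promoters. These are matches of letters and say nothing of binding.

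Among the receptors, only Egfr differed in mean by more than 0.1 log2 units, and the size of that difference depended on 1 mouse. Egfr read 6.70, 7.11 and 6.89 in controls and 8.82, 7.11 and 7.28 in deficient arrays. The highest control and the lowest deficient array were 0.006 log2 units apart, so the groups touched. The log2 change was 0.84 ± 0.45 (SE; 95% interval -0.22 to 1.90), with a limma adjusted p of 0.379. Without deficient replicate 1 the change was 0.30 (limma adjusted p = 0.505).

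The second Egfr probe set above the filter read 5.58, 6.04 and 5.57 in controls and 7.42, 6.03 and 6.72 in deficient arrays. Here too deficient replicate 1 was highest, deficient replicate 2 lay within the control range, and replicate 3 stood clearly above the controls. Its log2 change was 0.99 ± 0.36 (SE), with a limma adjusted p of 0.253 in the fit on all probe sets, and 0.64 without deficient replicate 1. The remaining 5 of the 7 Egfr probe sets were at or below 5 on all arrays.

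The genes most like Egfr, by the root mean square difference over the 6 arrays after each was centred on its own mean, were Rnf24 (0.0976), the chloride channel family protein Clic4 (0.101) and the glucose transporter Slc2a1 (0.111). Each was highest in deficient replicate 1: Rnf24 read 8.73 there, Clic4 10.4 and Slc2a1 13.9. Their log2 changes were 0.84, 0.84 and 0.81, with limma adjusted p from 0.332 to 0.430, so they too were uncalled. Because they were picked for likeness to Egfr on these same arrays, the shared pattern follows from the choice.

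Erbb2, the receptor without a ligand of its own, read 9.31, 8.93 and 9.11 in controls and 9.41, 8.84 and 8.93 in deficient arrays. The log2 change was -0.06 ± 0.21 (SE; 95% interval -0.56 to 0.44; limma adjusted p = 0.895), and its sign turned when arrays were centred on the median (0.01) or without control replicate 1 (0.03), deficient replicate 2 (0.05) or deficient replicate 3 (0.002). Erbb3, whose weak kinase makes it depend on a partner receptor, read 12.8, 12.2 and 12.6 in controls and 12.7, 12.7 and 12.5 in deficient arrays. Its change was 0.07 ± 0.19 (SE; 95% interval -0.39 to 0.52; limma adjusted p = 0.878), or -0.09 without control replicate 2. Both intervals span 0 and still allow a rise to 0.44 for Erbb2 and to 0.52 for Erbb3. The other Erbb3 probe set was at or below 5 on all arrays.

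Of the inhibitors, Errfi1, which Egfr signalling itself induces, read 12.68, 12.03 and 12.55 in controls and 13.2, 12.9 and 12.1 in deficient arrays. The groups overlapped, with a log2 change of 0.30 ± 0.31 (SE; 95% interval -0.44 to 1.05; limma adjusted p = 0.639). It was 0.08 without deficient replicate 1, 0.11 without control replicate 2, 0.60 without deficient replicate 3, 0.09 with array weights and 0.95 with the mean of both probe sets. The second probe set, of a design that can match several transcripts, read 8.48, 5.94 and 8.56 in controls and 9.55, 9.72 and 8.48 in deficient arrays. Control replicate 2 was far below the rest there, so the log2 change of 1.59 ± 0.73 (SE; limma adjusted p = 0.330) became 0.73 without that array.

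Lrig1 read 8.87, 7.59 and 8.25 in controls and 8.62, 8.61 and 8.01 in deficient arrays, on a probe set of the same kind of design. The log2 change was 0.17 ± 0.35 (SE; 95% interval -0.65 to 1.00; limma adjusted p = 0.823), and -0.15 without control replicate 2. A second probe set read 8.14, 6.26 and 7.22 in controls and 7.76, 7.96 and 7.14 in deficient arrays, again lowest in control replicate 2 and again overlapping. Its log2 change was 0.41 ± 0.47 (SE), or -0.06 without control replicate 2 and 0.88 without control replicate 1. The remaining Lrig1 probe set was at or below 5 on all arrays.

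**Figure D2:**
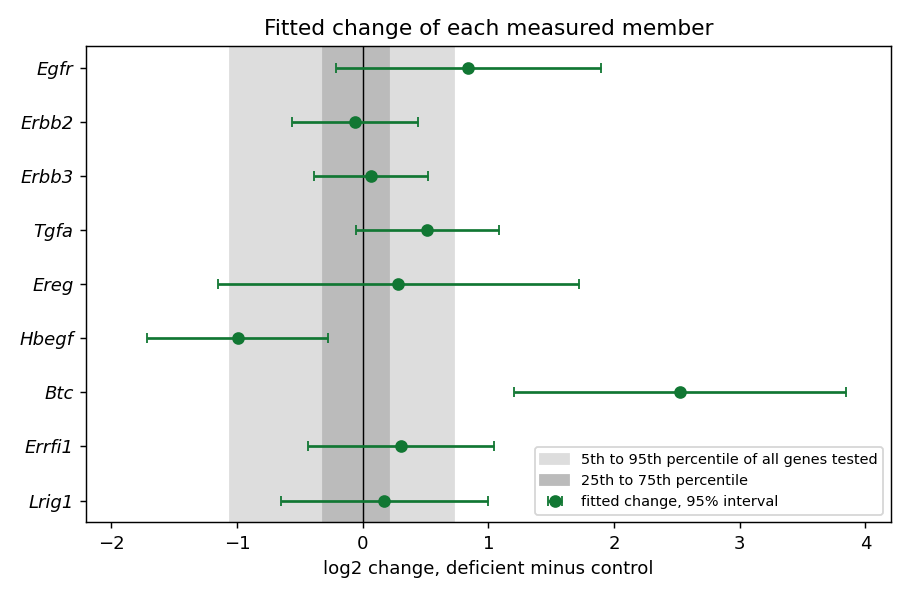
Fitted log2 change (deficient minus control) of each measured member with its 95% interval from limma, over bands that hold the 5th to 95th and 25th to 75th percentiles of the changes of all 8893 genes tested. Btc, at 2.53, and Egfr, at 0.84, lay above the 95th percentile of 0.73; Hbegf, at -0.996, lay just inside the 5th percentile of -1.05, and the other 6 lay within the wide band.

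**Figure D3:**
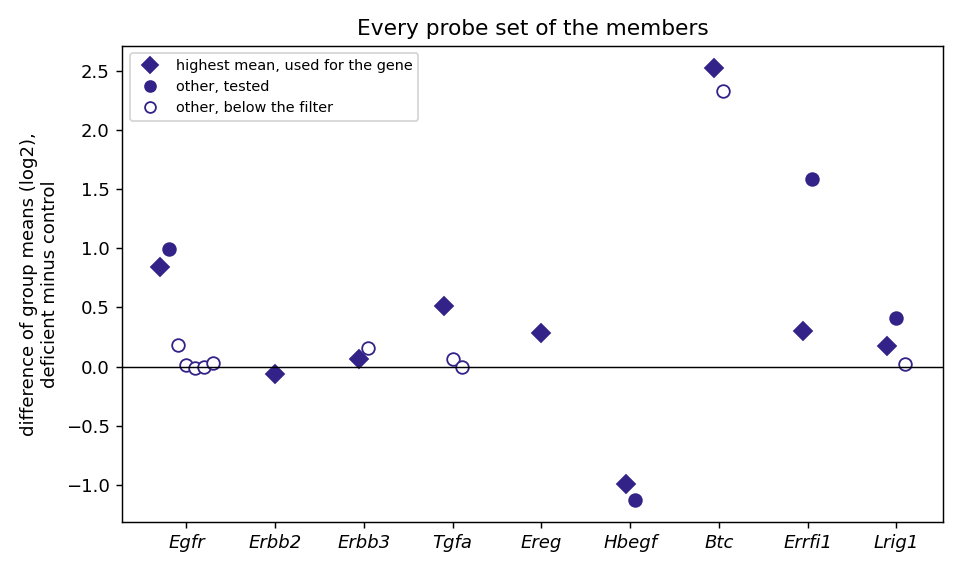
Difference of group means (log2, deficient minus control) for each of the 23 member probe sets; diamonds are the probe set used for the gene, filled symbols the 13 that passed the filter and open symbols those that did not. Both Btc probe sets lay above 2 and both Hbegf probe sets near -1, whereas the Errfi1 pair stood apart at 0.30 and 1.59.

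Within the deficient group, 1 mouse stood highest for every measured member. Deficient replicate 1 had the highest value of its group for 9 of 9 members, against 36.4% of all genes tested, and deficient replicate 3 had the lowest for 6 (all but Egfr, Erbb2 and Hbegf), against 32.4%. No control array was highest for every member, but the same 6 members were highest in control replicate 1 and lowest in control replicate 2. Control replicate 1 had the highest value of its group for 6 members, against 43.2% of all genes, but the lowest for Egfr, Tgfa and Btc. Control replicate 2 had the lowest value for Erbb2, Erbb3, Ereg, Hbegf, Errfi1 and Lrig1, against 44.9% of all genes, but the highest for Egfr and Btc. For Erbb3 and Lrig1, deficient replicates 1 and 2 were about 0.01 apart, so their order is not settled. Members on one array share its RNA, and these counts are descriptions.

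Control replicate 2 was also the array with the lowest crypt stem cell list, at -0.70 relative to the control mean beside 0.59 and 0.12 in control replicates 1 and 3; the deficient arrays lay between 0.32 and 0.40. Lgr5 and Ascl2 of that list were at or below 5 on all arrays. The Paneth list stood at -0.58 in control replicate 2, between -0.05 and 0.63 in the other controls and between -0.21 and 1.02 in deficient arrays. Their part in the low Ereg, Errfi1 and Lrig1 values of that array was not tested.

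The wider pathway was represented by 110 other genes in 8 lists, with 104 measured under 1 symbol and 85 tested. Of these 85, 0 were called higher and 2 lower, which is 2.35% beside 2.09% of all genes, with a median log2 change of -0.01 beside -0.04. The remaining receptor and ligands of the family, Erbb4, Egf, Epgn, Nrg1, Nrg2, Nrg3 and Nrg4, were all at or below 5 on all 6 arrays, so none was tested. Only Nrg4 among them had groups that did not overlap. It read 3.78, 4.69 and 4.12 in controls and 3.25, 3.35 and 3.36 in deficient arrays, all below the filter level.

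Signalling components showed no call by limma at an adjusted 0.05. In the list for ligand shedding and trafficking, 0 of 7 tested genes passed (1 at an unadjusted p under 0.05) and the median was 0.12. The smallest p there was that of Rhbdl2, a rhomboid protease of the cell surface that can cleave EGF precursors, which read 8.24, 7.78 and 8.65 in controls and 9.27, 9.24 and 8.95 in deficient arrays (log2 change 0.93 ± 0.25, SE; limma adjusted p = 0.154). All 3 deficient arrays were above the controls. Of 20 adaptors and receptor-proximal genes 0 passed (5 at an unadjusted p under 0.05), with the phospholipase Plcg1 at -0.71 ± 0.19 (SE; limma adjusted p = 0.147). In the Ras-MAPK list 0 of 7 passed (0 at an unadjusted p under 0.05), with the ERK kinase Map2k1 at 0.53, and in the PI3K-Akt list 0 of 10 passed (1 unadjusted), with the regulatory subunit Pik3r2 at -0.52. Of 15 trafficking and ubiquitination genes 0 passed (1 unadjusted), with Stam, an endosomal sorting protein, at 0.61.

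Among 13 tested feedback inhibitors 0 passed (3 at an unadjusted limma p under 0.05), and the median was -0.004. The 3 went both ways: Spry1 and Dusp5 (-1.02, groups overlapping) were lower, and Dusp6 (0.69, groups not overlapping) was higher. Spry1, a Sprouty inhibitor of receptor tyrosine kinase signalling, read 7.56, 6.20 and 7.37 in controls and 6.18, 4.94 and 4.87 in deficient arrays, a log2 change of -1.71 ± 0.48 (SE; limma adjusted p = 0.164). The lowest control and the highest deficient array nearly met.

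The list of ERK-responsive transcription held both called genes. Of 13 tested, 2 fell (1.98% of all genes did) and 0 rose, 9 had lower means (54.6% of all genes) and 7 had an unadjusted limma p under 0.05 (16.9% of all genes), with a median log2 change of -0.46. Egr3, an early growth response factor, read 7.35, 5.88 and 5.67 in controls and 3.82, 3.94 and 3.67 in deficient arrays, at least 2.46-fold lower against the level 5 (fitted log2 change -2.49 ± 0.43, SE; limma adjusted p = 0.0359). Elk3 is a transcription factor that ERK phosphorylates rather than a transcript it induces. It read 5.71, 5.21 and 5.70 in controls and 3.77, 3.62 and 3.64 in deficient arrays, at least 1.45-fold lower (fitted -1.86 ± 0.19, SE; limma adjusted p = 0.00416). Both genes passed the filter through the controls alone, where they are higher, so their count is no support for a shift of the list. Without them 11 genes remained, of which 0 were called, 7 had lower means and 5 had an unadjusted limma p under 0.05, with a median of -0.31. Elk3 kept its call in all 6 fits that left out 1 array (limma adjusted p 0.00722 to 0.0292). Egr3 kept it in 1 of those fits, the one lacking control replicate 1 (limma adjusted p = 0.0130), and lost it in the other 5 (0.0593 to 0.141). T cells also express Egr3, and the T cell list stood at -4.03 to -2.55 in the same arrays; its part in these values was not tested.

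**Figure D4:**
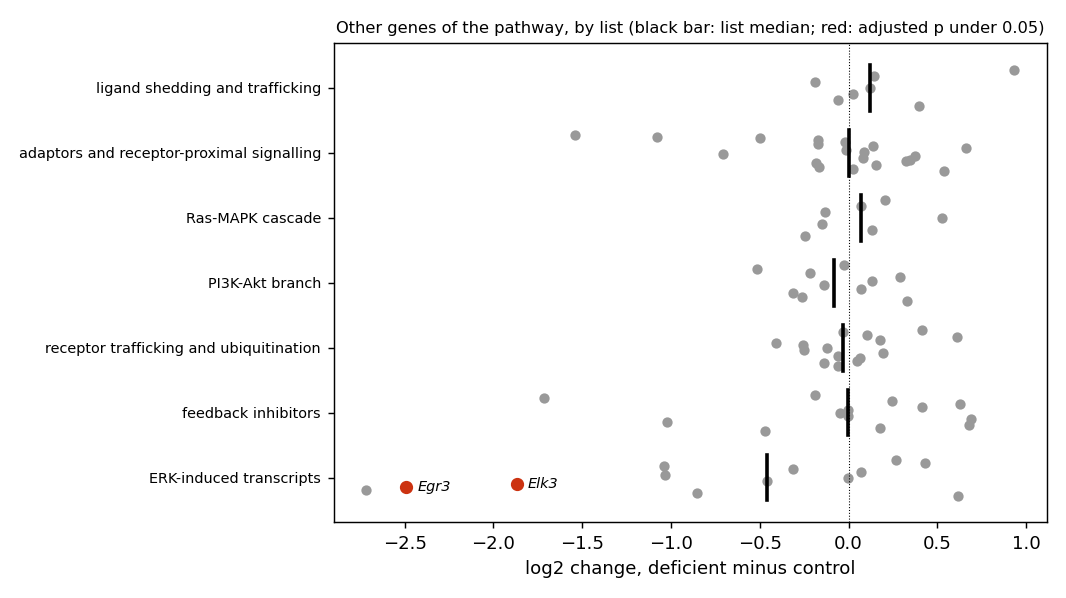
Fitted log2 change (deficient minus control) of the 85 tested pathway genes other than the members, by list, 1 point per gene, with the list median as a black bar and genes with a limma adjusted p under 0.05 in red. The list medians ran from -0.46 for ERK-responsive transcription (labelled ERK-induced transcripts) to 0.12 for ligand shedding, and Egr3 and Elk3 were the called genes.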

How the data were processed

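Total RNA of 6 intestinal epithelial cell preparations was measured on Affymetrix arrays. The authors deposited 1 log2 value for each probe set and array. Partek 6.5 and GCRMA are listed in the submitters' processing notes, with no step given for either. That values are log2 was judged from their size (array medians 3.26 to 3.33). Under GCRMA, unexpressed probe sets crowd at a low floor, and changes against that floor vary with its background correction. Detection calls were not used. Precision is limited by the number of arrays.

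Of 45101 probe sets, 64 controls were left out and 34945 had 1 gene symbol, 932 several and 9160 none; 34754 matched an Entrez ID of GRCm38.p6 and 0 symbols changed. Each gene was represented by its probe set with the highest mean, and the 8893 genes above 5 on at least 3 arrays were tested with limma 3.58.1 in R 4.3.3 (lmFit, eBayes, no covariate, Benjamini-Hochberg, threshold 0.05). Log2 changes are deficient minus control; a fold given as at least has values at or below 5 raised to 5. The fit was tested on simulated data. Every probe set of a member was named, with the pathway gene of smallest p, or the called genes, of each list, and the 3 genes nearest to Egfr. Dusp5, Dusp6 and Nrg4 were named in addition. Members and lists were chosen with earlier results of these data known. Alternatives changed the moderation, array weights, filter, normalization, probe set handling and the replicate block, and each array was left out in turn. Labels give separate mice for each array. A few list genes were not analysed here.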

Additional observations from a re-analysis of the deposited data

How the results depend on the processing

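Of 17 alternatives, 15 called 0 members; array weights called 2, Btc (2.26, limma adjusted p = 0.0426) and Hbegf (-1.13, 0.0474), and leaving out deficient replicate 3 called 1, Btc (3.16, 0.00892; 1.95 to 3.16 over the arrays left out). Signs turned for Erbb2 with median centring (0.015), for Erbb3 and Ereg with array weights (-0.0057 and -0.24), and when 1 array was left out for Erbb2 (-0.23 to 0.049), Erbb3 (-0.095 to 0.19), Ereg (-0.41 to 0.72) and Lrig1 (-0.15 to 0.49). The cause was not tested. Egfr, Tgfa, Errfi1, Btc and Hbegf kept their sign in every alternative run; Egfr and Tgfa were not tested with the mean of all probe sets, which lay below the filter. Called members ran from 0 to 1 when 1 array was left out. Lower genes numbered 176, and 260 with array weights, 85 without a filter and 111 with the mean of all probe sets. They numbered 88 to 203 with 1 array left out (88, 101 and 97 without control replicates 1 and 3 and deficient replicate 2). Higher genes numbered 10, and 33 with array weights, 0 without a filter, 17 with median centring, 6 with the mean of probe sets and 3 to 36 with 1 array left out (36 without deficient replicate 3, 3 to 5 without any other array). Lower pathway genes numbered 2, and 6 with array weights, 1 without a filter, 0 with a filter at 6 or the mean of probe sets, and 1 to 2 with 1 array left out. With a filter at 6 or the mean of probe sets, Egr3 and Elk3 did not pass the filter and were not tested. The labels state no pairing of same-numbered mice. Deviations of such mice from their group means had correlations of 0.05, -0.29 and 0.002. With 3 mice a group these values cannot show whether the numbers pair them. With the replicate block, 132 genes were lower and 9 higher, and 0 members and 1 pathway gene were called. In that fit Btc had a limma adjusted p of 0.112 and Egr3 one of 0.0557.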
